A study of Mus musculus with 9 samples.

Results

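Mice given febuxostat before intracerebral hemorrhage (ICH) were compared with sham mice, to ask what still differed from sham brain in spite of the drug and what differed from it only with the drug. The comparison took 6 of the 9 mice of the study, the 3 mice of the feb group and the 3 mice of the sham group. It covered 15952 of the 38621 genes in the table, those with at least 1 RPKM in at least 3 of these 6 mice and an exon length of at least 300 bases. RPKM is the number of reads on a gene per kilobase of its exons scaled to the total number of reads counted in the mouse. The third-highest of the 6 values was 1.0002 RPKM for 1700034H15Rik, which just entered, and 0.99985 RPKM for 6430584L05Rik, which just missed the limit.

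All mice were male C57BL/6. The feb mice were gavaged with febuxostat once a day, at 50 mg/kg, on 5 days, and then 30 μl of their own blood was injected into the brain. The ICH mice received the blood without the drug. The sham mice are called untreated in the labels and are described in the study's methods as injected with saline in place of blood. No group received the drug without blood, so an effect of febuxostat alone and an effect on the bled brain cannot be told apart. The study's methods describe no gavage of the sham or ICH mice. An effect of the drug and an effect of repeated gavage and handling therefore cannot be told apart in any contrast with the feb mice. The sources used here name brain tissue but neither the dissected region nor the time after the injection. Nothing in the labels says that the samples of a group were prepared independently, so p-values measure the spread between these samples, which may be partly technical.

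Febuxostat blocks xanthine oxidase, the enzyme that turns hypoxanthine and xanthine into uric acid. Blood in the brain tissue sets off edema, opening of the blood-brain barrier, and a stress response that includes release of adrenal glucocorticoids, which act on brain cells through a nuclear receptor. The choroid plexus is the epithelium in the ventricles that makes cerebrospinal fluid, and its cells hold very high levels of the mRNA for transthyretin. In RNA of whole tissue, fewer cells of a type and less RNA per cell cannot be told apart.

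Between 23065757 and 29538009 reads per mouse were counted on genes. Markers of neurons (Snap25, 196 to 272 RPKM), astrocytes (Slc1a2, 158 to 217 RPKM), and myelin (Mbp, 151 to 285 RPKM) were present in all 9 mice, as brain tissue should have. The summed level of 21 genes of striatal medium spiny neurons ranged from 191 to 940 RPKM among the sham mice and from 337 to 639 RPKM among the feb mice. Feb mouse 2 stood apart from the other two in many of the genes described here. It was the lowest feb mouse for 30 of the 32 protein-coding genes that rose, whereas feb mouse 3 was the highest for 25 of them. Sham mouse 2 was the lowest sham mouse for 24 of the 28 genes that fell.

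Differentially expressed genes (DEGs) were called where limma on log2(RPKM + 0.1) gave a fold change above 2 together with an unadjusted p below 0.05, the cutoffs the study used. A log2 change on this scale is smaller than the ratio of RPKM values for genes near 0.1 RPKM. Between the feb and sham groups, 121 genes (0.759% of those tested) were DEGs, of which 93 (0.583%) were higher and 28 (0.176%) were lower in the feb group. With quantile normalization in place of the authors' scaling, the split was 66 higher and 37 lower. The values of the 3 feb mice and the 3 sham mice did not overlap for 60 of the higher and 19 of the lower DEGs, and over all genes tested they did not overlap for 6.5% in the higher and 6.12% in the lower direction. By limma, 1538 genes (9.64%) had an unadjusted p under 0.05, 5.95% in the higher and 3.69% in the lower direction, where 798 would be expected by chance if no gene differed. None passed a Benjamini-Hochberg adjusted p of 0.05, and the lowest adjusted p was 0.131, so each DEG below is a call without correction for the number of genes. Over all genes tested, the log2 change had a median of 0.03. Of the 121 DEGs, 15 entered the comparison only through the feb mice and 7 only through the sham mice, and such genes had to differ. In 21 DEGs at least 1 of the 6 mice had fewer than 10 reads. Of the 121 DEGs, 30 were called whichever of the 6 mice was left out, 17 higher and 13 lower. The genes tested were the same in each of these fits, so the limit of 1 RPKM favored those 15 and 7 genes again.

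**Figure D1:**
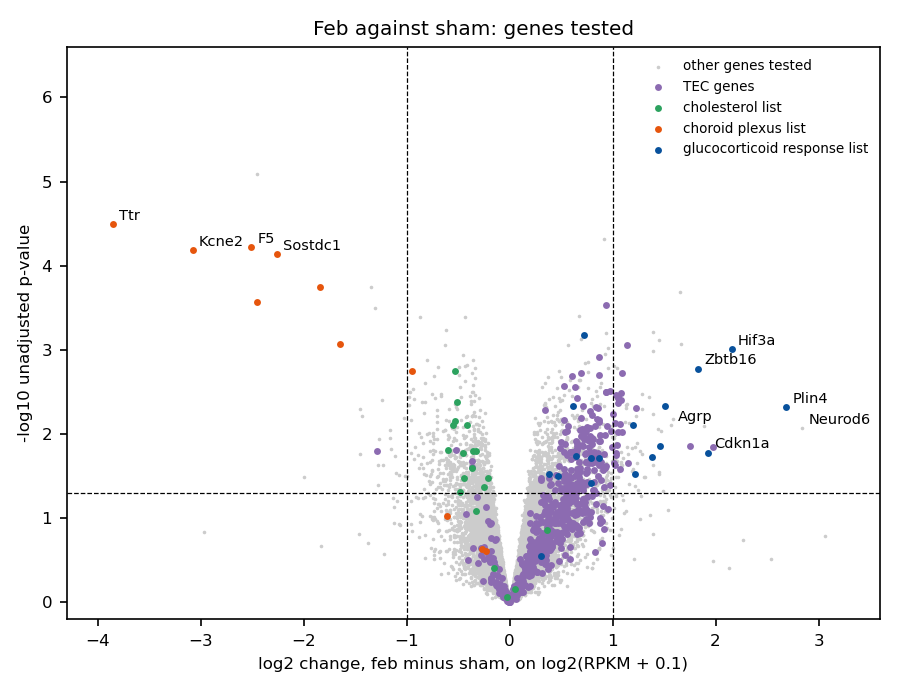
Each point is 1 of 15952 genes, with the log2 change between the feb and sham groups on log2(RPKM + 0.1) along the horizontal axis and −log10 of the unadjusted limma p-value along the vertical axis. Dashed lines mark the DEG criteria, and choroid plexus genes lie far to the left, while glucocorticoid response genes and TEC genes (a class of unproven loci in the annotation) lie to the right.

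The largest falls among the DEGs were in genes of the choroid plexus. Of 21 genes in the list, 11 were tested and 7 met the DEG criteria, all of them lower in the feb mice, where 0.176% of all genes tested were. Of these 7, Kcne2, F5, Folr1, Sostdc1, and Kl entered the test through the sham mice only, so the limit of 1 RPKM favored their difference, and Ttr and Enpp2 entered through both groups. The 3 feb mice lay below the 3 sham mice for 8 of the 11 tested members, where 6.12% of all genes tested did. The feb mice also lay below the sham mice for 7 of the 10 members that were below the limit. The median log2 change of the list was −1.84, against 0.03 for all genes. Both the 8 and the median include the members that entered through the sham mice only, so the limit favored these values too. The same 11 genes had a median log2 difference of 0.22 between the ICH and sham groups and of −1.96 for feb against ICH, and the 3 contrasts share mice.

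Ttr codes for transthyretin, the carrier of thyroxine and retinol in cerebrospinal fluid. Its level was 1005, 349.6, and 817 RPKM in the sham mice, 808, 938, and 437 RPKM in the ICH mice, and 24.2, 50.4, and 78.1 RPKM in the feb mice. The feb mice were the lowest 3 of all 9, and their mean of 50.9 ± 27.0 RPKM (SD, n = 3) was 14.2-fold below the sham mean of 724 ± 337 RPKM (SD, n = 3). The log2 change by limma was −3.85 with a standard error of 0.51, at an unadjusted p of 3.22e-05 and an adjusted p of 0.195.

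Kcne2 encodes a potassium channel subunit of the epithelium. It measured 5.73, 1.80, and 3.68 RPKM in the sham mice and 0.150, 0.291, and 0.613 RPKM in the feb mice, without overlap. Its log2 change was −3.08 ± 0.44 (SE), and its mean ratio was 10.6-fold. F5, coagulation factor V, went from a sham mean of 3.09 ± 1.14 RPKM to a feb mean of 0.441 ± 0.125 RPKM (SD, n = 3 each), with a log2 change of −2.51. Folr1, the folate receptor that carries folate across this epithelium, fell by 2.45 on the log2 scale.

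Sostdc1, a secreted inhibitor of BMP and Wnt signaling, had 4.64, 1.81, and 3.80 RPKM in the sham mice and 0.496, 0.520, and 0.768 RPKM in the feb mice. Enpp2, or autotaxin, which makes lysophosphatidic acid, had 126, 58.9, and 111 RPKM in the sham mice and 22.5, 38.2, and 20.7 RPKM in the feb mice. Kl, the anti-aging factor klotho that serves as a coreceptor of FGF23, had a log2 change of −1.64 ± 0.34 (SE). For all 3 genes every feb mouse was below every sham mouse, which the limit for testing fixed for Sostdc1 and Kl. Enpp2 is also expressed by oligodendrocytes, so its RNA need not come from the plexus alone.

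The remaining 4 tested members did not meet the criteria. The chloride channel protein Clic6 passed the p-value but not the fold change, with 11.1, 8.73, and 10.7 RPKM in the sham mice and 4.85, 3.94, and 7.42 RPKM in the feb mice. Ace and Cab39l, which other brain cells also express, and Kcnj13 had log2 changes between −0.61 and −0.23. Of the 10 members below the limit for testing, the water channel Aqp1 had 1.51, 0.539, and 0.921 RPKM in the sham mice and 0.187, 0.106, and 0.248 RPKM in the feb mice. The bicarbonate transporter Slc4a5 had 2.02, 0.679, and 1.46 RPKM in the sham mice and 0.0781, 0.116, and 0.344 RPKM in the feb mice.

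The summed level of the list was 442 to 1191 RPKM in the sham mice, 573 to 1121 RPKM in the ICH mice, and 69.5 to 125 RPKM in the feb mice. No defining marker was at 0 in a feb mouse. The count of called members was 7 or 8 whichever of the 6 mice was left out. The genes tested were the same in these fits, so the limit favored Kcne2, F5, Folr1, Sostdc1, and Kl there too. Without sham mouse 2, 6 genes passed an adjusted p of 0.05 by limma, and Ttr, Kcne2, Sostdc1, and Enpp2 were among them. The lowest sham value of each of these named genes was in sham mouse 2, so leaving it out favored their passing. Genes of neighboring cells were compared with those of the plexus. Of 15 tested genes of ependymal cilia, whose cells line the same ventricles, none was a DEG. By limma, 2 had an unadjusted p under 0.05, both with higher values in the feb mice, where 5.95% of all genes tested did. The summed level of the cilia genes was 51.5 to 60.2 RPKM in the sham mice and 58.3 to 73.5 RPKM in the feb mice. Of 15 tested genes of meningeal fibroblasts, Igf2 and Col1a1 met the criteria for a fall, where 0.176% of all genes tested did, and 13 were not called. Col1a1 lost its call without sham mouse 1, sham mouse 3, feb mouse 1, or feb mouse 3.

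Other DEGs that were lower in the feb mice had the same pattern over the mice. 1500015O10Rik, which encodes the secreted peptide augurin, had 4.28, 2.08, and 3.59 RPKM in the sham mice and 0.377, 0.571, and 0.577 RPKM in the feb mice. Its log2 change was −2.45 ± 0.27 (SE), and its p was 8.21e-06 by limma (adjusted p = 0.131), but the gene was tested only because the sham mice were above 1 RPKM. The keratin Krt18, tested through the sham mice only as well, fell by 1.44 on the log2 scale. The growth factor Igf2 had 13.0, 4.75, and 9.45 RPKM in the sham mice and 3.02, 4.20, and 4.42 RPKM in the feb mice, which do not overlap, and it was not called without sham mouse 1, sham mouse 3, or feb mouse 1. Igfbp2, which binds insulin-like growth factors, had a log2 change of −1.27, although feb mouse 2 at 7.36 RPKM was above sham mouse 2 at 6.75 RPKM.

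**Figure D2:**
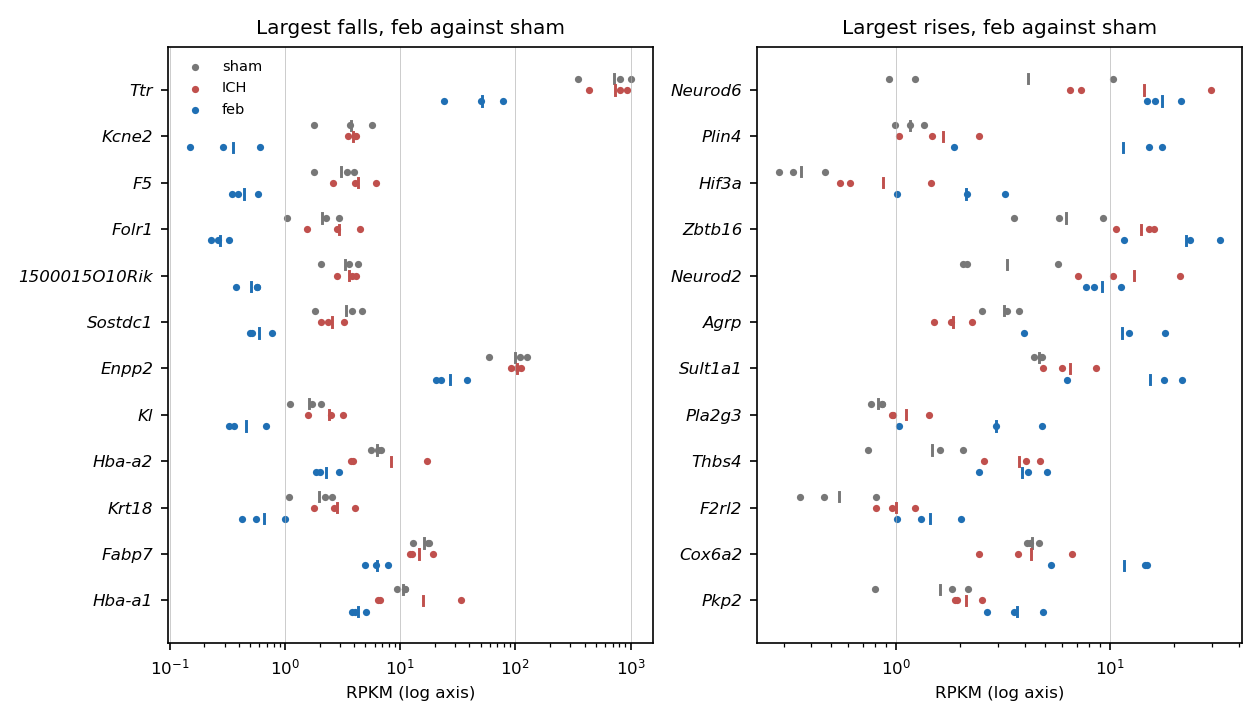
RPKM of each mouse on a log axis for the protein-coding DEGs without overlap that had the largest falls (left, 12 genes) and the largest rises (right, 12 genes), with points for mice and a short bar for the group mean. The sham and ICH points lie together for the genes from Ttr to Kl, with the feb points to their left.

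Globin mRNA, which marks red blood cells in the tissue, was also lower. Of 4 tested red blood cell genes, 2 were called lower, where 0.176% of all genes tested were. Hba-a1 had 9.42, 11.1, and 10.95 RPKM in the sham mice and 4.05, 5.07, and 3.79 RPKM in the feb mice. Hba-a2 had 5.63, 6.88, and 6.45 RPKM in the sham mice and 1.87, 2.97, and 2.01 RPKM in the feb mice. Both genes met the DEG criteria without overlap, and because they are nearly identical copies the split of reads between them is uncertain. Hba-a1 lost its call when any 1 of the 6 mice was left out, and Hba-a2 when feb mouse 1 was, at log2 changes of −1.40 to −1.19 and of −1.65 to −1.33. Hbb-bs had a log2 change of −1.13 ± 0.52 (SE) with an unadjusted p of 0.0571 by limma, so it was not called, although its feb and sham mice did not overlap. In the ICH group, 1 mouse had 34.0 RPKM of Hba-a1 and the other two had 6.74 and 6.44 RPKM. Alas2, the heme synthesis enzyme of erythroid cells, had the opposite sign, with a log2 change of 0.72, and was not called. Without feb mouse 1, 0 of the 4 genes were called lower and 1 was called higher.

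Fabp7, a fatty acid binding protein of astrocytes and radial glia, fell from 17.4, 12.9, and 17.9 RPKM in the sham mice to 6.16, 7.80, and 4.96 RPKM in the feb mice. Its log2 change was −1.34 ± 0.22 (SE). In the ICH mice it had 19.2, 12.8, and 12.1 RPKM. Of 16 tested genes of homeostatic astrocytes, none met the criteria, and Aqp4, the water channel of astrocyte endfeet, had a log2 change of −0.84.

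Of 16 tested myelin genes, 2 were called lower, where 0.176% of all genes tested were, and 14 were not called. The median log2 change of the 16 was −0.59. Opalin, a membrane protein of oligodendrocytes, had 20.0, 14.3, and 21.8 RPKM in the sham mice and 8.04, 13.4, and 5.12 RPKM in the feb mice. Ugt8a, which makes the myelin lipid galactosylceramide, had 14.98, 10.8, and 14.1 RPKM in the sham mice and 5.59, 11.05, and 3.25 RPKM in the feb mice, and feb mouse 2 overlapped with sham mouse 2. The protease gene Klk6 of oligodendrocytes was a DEG as well, with a log2 change of −2.00. Klk6 lost its call without sham mouse 1, sham mouse 3, feb mouse 1, or feb mouse 3. Without feb mouse 3, the count of myelin genes called fell to 0, and without feb mouse 2 it was 3.

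Genes that respond to glucocorticoids were higher in the feb mice. Of 19 genes in the list, 18 were tested and 9 met the DEG criteria, all higher in the feb mice, where 0.583% of all genes tested did. By limma, 17 had an unadjusted p under 0.05, all with higher values, where 5.95% of all genes tested did. The median log2 change was 1.03. Between the ICH and sham groups the median of the same genes was 0.41 with 1 gene called, and between the feb and ICH groups it was 0.67 with 3 called. The summed level was 133 to 154 RPKM in the sham mice, 295.5 and 357 RPKM in feb mice 1 and 3, and 180.2 RPKM in feb mouse 2. The values of the feb and sham mice did not overlap for 8 of the 18 genes, all higher, where 6.5% of all genes tested did. Among the 8, Hif3a was separated by the limit of 1 RPKM itself.

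Plin4, a coat protein of lipid droplets, had 1.16, 0.993, and 1.35 RPKM in the sham mice, 2.45, 1.47, and 1.03 RPKM in the ICH mice, and 15.2, 1.87, and 17.6 RPKM in the feb mice. Its log2 change was 2.69 ± 0.73 (SE), with an unadjusted p of 0.00483 by limma, and the feb mean was 9.88-fold above the sham mean. Feb mouse 2 lay above the sham mice but below ICH mouse 1. Without feb mouse 2 the log2 change of Plin4 was 3.71, and the adjusted p by limma was 0.0367. Feb mouse 2 had the lowest of the 3 feb values, so leaving it out had to raise the change, and this p is no separate support.

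Hif3a, a hypoxia-inducible factor that is also induced by glucocorticoids, had 0.333, 0.285, and 0.467 RPKM in the sham mice and 2.16, 1.02, and 3.24 RPKM in the feb mice. The log2 change was 2.16 ± 0.45 (SE), and since Hif3a was tested through the feb mice only, the limit of 1 RPKM itself separated the groups. Zbtb16, a zinc finger transcription factor, had 9.31, 3.56, and 5.77 RPKM in the sham mice, 15.3, 16.1, and 10.6 RPKM in the ICH mice, and 23.6, 11.6, and 32.6 RPKM in the feb mice. It was the only member of the list called in both the feb and the ICH groups against sham.

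Cdkn1a, the cell cycle inhibitor p21, had 1.34, 0.964, and 1.10 RPKM in the sham mice and 7.31, 1.18, and 10.7 RPKM in the feb mice. Fkbp5, a cochaperone that dampens the glucocorticoid receptor, had 3.67, 4.85, and 3.92 RPKM in the sham mice and 16.0, 4.44, and 21.3 RPKM in the feb mice. Feb mouse 2 was inside the range of the sham mice for both genes, and the other feb mice were far above it. Sult1a1, a sulfotransferase of phenols and catecholamines, had 4.81, 4.77, and 4.41 RPKM in the sham mice and 17.8, 6.28, and 21.8 RPKM in the feb mice, without overlap. Sgk1, a kinase that controls ion channels, rose by a log2 change of 1.20, Arrdc2, an arrestin-domain protein, by 1.38, and Map3k6, a stress kinase, by 1.22.

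Members that did not meet the fold change included the metallothioneins, which bind zinc and copper. Mt1 had 19.3, 15.9, and 19.0 RPKM in the sham mice and 30.6, 24.1, and 35.6 RPKM in the feb mice, with a log2 change of 0.72 ± 0.14 (SE). The ICH mean of Mt1 was 16.6 ± 1.23 RPKM (SD, n = 3). Mt2 had a log2 change of 0.62. For both genes the feb mice lay above every sham and every ICH mouse. Tsc22d3, also known as Gilz, had a log2 change of 0.30 ± 0.26 (SE) and was the only tested member with an unadjusted p above 0.05 by limma.

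**Figure D3:**
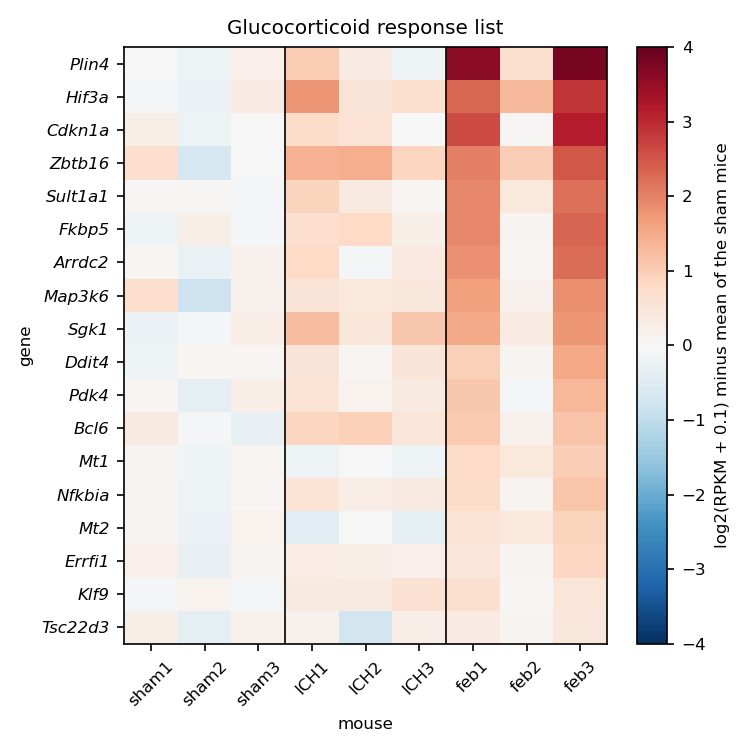
Level of the 18 tested glucocorticoid response genes in each mouse, as log2(RPKM + 0.1) minus the mean of the 3 sham mice (red higher, blue lower). The columns of feb mice 1 and 3 are red for the genes at the top, and the column of feb mouse 2 is pale except for a few genes such as Hif3a and Zbtb16.

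The number of called members depended on the mice. It was 12 of 18 without feb mouse 2, 5 without feb mouse 1, 4 without feb mouse 3, and 7 without sham mouse 2, and the median log2 change ranged from 0.76 to 1.44 over the mice left out. Cdkn1a, Fkbp5, Arrdc2, and Map3k6 lost their calls without feb mouse 1 or feb mouse 3, Sgk1 without feb mouse 3, and Arrdc2 and Map3k6 also without sham mouse 2. Without feb mouse 2, 18 genes passed an adjusted p of 0.05 by limma, among them Plin4, Cdkn1a, Fkbp5, Sult1a1, and Arrdc2 of this list. The lowest feb value of each of these named genes was in feb mouse 2, so leaving it out favored their passing. Beside the list, the sum of 15 tested and 6 untested neuropeptide genes was 448, 164, and 409 RPKM in the feb mice and 173 to 237 RPKM in the sham mice, so it too was high in feb mice 1 and 3. Its part in the result was not tested.

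The glucocorticoid receptor binds as a pair to inverted repeats, and the promoters of the genes were searched on both strands for the letters GNACA and TGTNC with any 3 bases between them, where N is any base. RefSeq promoters on GRCm38.p6, 250 bases before to 50 after the start, were matched to 17 of the 18 list members and to 10175 of all genes tested. The motif was in 3 of the 17 (17.6%), namely Sgk1, Mt1, and Map3k6, and in 46 of the 10175 (0.452%). The list was chosen as genes that respond to glucocorticoids, so its share of this motif says nothing about these mice. Among the 31 higher DEGs with a promoter the motif was in Map3k6 and Sgk1 (6.45%), both members of the list. Among the 16 lower ones it was in 0. Of the other motifs searched, the E-box CACGTG was in the promoters of Bcl6, Fkbp5, and Sgk1, or 17.6% of the list against 11.6% of all, and the cAMP response element in that of Errfi1, or 5.88% against 3.50%. The antioxidant response element was in 17.6% of the list against 16.8% of all, and the D-box, the X-box, the heat shock element, and the sterol response element were in none of the 17. A match is a run of letters and not a shown binding site. The promoters of these 3 genes are printed to show where the match lies, 5′ to 3′ on the plus strand of chr10:21993640-21993939 for Sgk1, chr8:94178839-94179138 for Mt1, and chr4:133240568-133240867 for Map3k6, with the match in capitals. It begins 188 bases before the start in Sgk1, 94 in Mt1, and 181 in Map3k6.
Sgk1: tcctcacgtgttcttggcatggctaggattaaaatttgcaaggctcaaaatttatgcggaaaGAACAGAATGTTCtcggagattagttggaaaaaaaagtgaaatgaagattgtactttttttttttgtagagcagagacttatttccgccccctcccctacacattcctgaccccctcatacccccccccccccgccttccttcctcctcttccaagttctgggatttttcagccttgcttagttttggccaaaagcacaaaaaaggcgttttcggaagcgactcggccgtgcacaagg
Mt1: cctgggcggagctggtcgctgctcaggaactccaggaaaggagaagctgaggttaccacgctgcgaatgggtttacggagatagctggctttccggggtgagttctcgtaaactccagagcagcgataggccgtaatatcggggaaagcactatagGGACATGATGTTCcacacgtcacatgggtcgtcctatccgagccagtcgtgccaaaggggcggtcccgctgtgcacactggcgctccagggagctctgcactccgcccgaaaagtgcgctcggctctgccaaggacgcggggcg
Map3k6: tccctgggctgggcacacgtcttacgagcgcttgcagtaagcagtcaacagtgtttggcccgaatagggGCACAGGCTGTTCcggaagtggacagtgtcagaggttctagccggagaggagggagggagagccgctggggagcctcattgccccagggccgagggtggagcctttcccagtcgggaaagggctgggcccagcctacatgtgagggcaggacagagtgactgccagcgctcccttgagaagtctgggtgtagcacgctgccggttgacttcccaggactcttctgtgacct

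Other genes rose with the same pattern over the mice. Pla2g3, a secreted phospholipase, had 0.764, 0.864, and 0.864 RPKM in the sham mice and 2.94, 1.04, and 4.84 RPKM in the feb mice. Cox6a2, a subunit of cytochrome c oxidase known from muscle, had 4.08, 4.22, and 4.66 RPKM in the sham mice and 14.9, 5.30, and 14.6 RPKM in the feb mice. In both genes feb mouse 2 was near the sham mice. Cox6a2 did not overlap with sham and lost its call without feb mouse 1 or feb mouse 3, and Pla2g3 was tested through the feb mice only, which separates the groups by itself. Of 94 tested nuclear genes of the respiratory chain, Cox6a2 was the only DEG. Tekt4 and Cfap73, which code for parts of motile cilia, were DEGs as well, with log2 changes of 1.24 each, and for both the feb and sham mice overlapped. Tekt4 lost its call without sham mouse 3, feb mouse 1, or feb mouse 3, and Cfap73 without sham mouse 3 or feb mouse 1.

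Agrp, the appetite-stimulating peptide of hypothalamic neurons, had 3.31, 2.53, and 3.76 RPKM in the sham mice, 2.26, 1.501, and 1.81 RPKM in the ICH mice, and 18.01, 3.95, and 12.2 RPKM in the feb mice. The feb mice were above all other mice, with a log2 change of 1.57 ± 0.46 (SE) against sham and of 2.32 against ICH. Npy, which the same neurons and many others make, had 33.6, 47.5, and 23.4 RPKM in the sham mice and 105, 34.9, and 90.8 RPKM in the feb mice, with a log2 change of 1.05 that lost its call without sham mouse 1, sham mouse 3, feb mouse 1, or feb mouse 3. The other 13 neuropeptides tested were not called. Pmch, melanin-concentrating hormone of the lateral hypothalamus, shows the scale of differences between mice of one group, with 0.633, 1.02, and 61.4 RPKM in the sham mice and 84.6, 5.82, and 59.1 RPKM in the feb mice. Its log2 change was 3.07 with a standard error of 2.02. Because the use of strand in counting is not given in the sources used here, reads of Plin4, Sult1a1, Pla2g3, and Folr1 cannot be told apart from reads of the genes on the other strand that overlap them, and Agrp overlaps genes on its own strand too.

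Xdh, the gene of the enzyme that febuxostat blocks, was a DEG in the fit of all mice. The call was lost without sham mouse 2, feb mouse 1, or feb mouse 3, where the log2 change over the mice left out ranged from 0.69 to 1.53, and also with quantile normalization and with a pseudocount of 1. It had 1.20, 0.792, and 1.36 RPKM in the sham mice, 2.18, 2.29, and 1.31 RPKM in the ICH mice, and 2.73, 1.20, and 4.07 RPKM in the feb mice. Feb mice 1 and 3 were above the sham mice, and feb mouse 2 was within their range. Its log2 change was 1.06 ± 0.41 (SE) against sham and 0.33 against ICH. The other 17 tested genes of purine metabolism were not called. Among these, Ada, which deaminates adenosine, had 1.10, 1.18, and 0.995 RPKM in the sham mice and 1.79, 1.405, and 2.32 RPKM in the feb mice, with a log2 change of 0.68.

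To separate what stayed changed from what was changed only with the drug, each DEG was looked up in the other 2 contrasts of the same fit, which share the sham or the feb mice with this one. Between the ICH and sham groups 158 genes (0.99%) were DEGs, 0.621% higher and 0.37% lower. For feb against ICH there were 115 (0.721%), 0.313% higher and 0.407% lower. Of the 121 DEGs, 16 (0.1% of the genes tested) were also called between ICH and sham in the same direction, 15 of them higher. Another 28 (0.176%) were also called between feb and ICH in the same direction, 12 higher and 16 lower. No gene was in both sets, and 77 were in neither. A gene that misses a criterion in a contrast is not shown to be equal there, so the 77 are not shown to differ from those in the other sets.

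Among the 16 genes that were called in both groups with blood, 4 are protein-coding and without overlap. Neurod6, a transcription factor of excitatory neurons of the cortex and hippocampus, had 10.3, 0.925, and 1.22 RPKM in the sham mice, 7.29, 29.7, and 6.54 RPKM in the ICH mice, and 16.3, 14.8, and 21.4 RPKM in the feb mice. Sham mouse 1 overlapped with the ICH mice but not with the feb mice. The log2 change was 2.84 ± 0.85 (SE) in the feb group and 2.23 in the ICH group. Neurod2, a related factor, had 5.70, 2.14, and 2.05 RPKM in the sham mice, 10.4, 21.3, and 7.09 RPKM in the ICH mice, and 8.39, 7.75, and 11.3 RPKM in the feb mice. Thbs4, a secreted matrix protein, had log2 changes of 1.39 in the feb group and 1.37 in the ICH group, and lost its call in the feb group without sham mouse 2. Zbtb16 is the fourth.

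Fezf2, a factor of deep-layer cortical neurons, and Wipf3, an actin regulator, were also called in both groups, with overlap between the feb and sham mice. Fezf2 lost its call in the feb group without sham mouse 2, sham mouse 3, feb mouse 2, or feb mouse 3, and Wipf3 without sham mouse 1, feb mouse 1, or feb mouse 3. Apln, the peptide ligand of the apelin receptor, was the only gene lower in both, with 7.72, 5.48, and 6.77 RPKM in the sham mice, 2.91, 1.99, and 5.09 RPKM in the ICH mice, and 2.54, 5.87, and 2.20 RPKM in the feb mice. Feb mouse 2 lay within the sham range, and the call was lost without sham mouse 1, sham mouse 3, feb mouse 1, or feb mouse 3. The summed level of 16 genes of cortical excitatory neurons was 164 to 302 RPKM in the sham mice, 448 to 658 RPKM in the ICH mice, and 313 to 385 RPKM in the feb mice. Both groups with blood lay above the sham mice in this sum, which includes Neurod6 and Fezf2 themselves. The part of these neurons in the rise of Neurod6, Neurod2, and Fezf2 was not tested. Of the 14 tested members, 2 were called higher in the feb group and 6 in the ICH group against sham. Over all genes tested these shares were 0.583% and 0.621%.

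The 16 lower genes called against both other groups were the 7 choroid plexus genes, 1500015O10Rik, Krt18, Igf2, Igfbp2, Fabp7, both alpha globins, the histone gene Hist1h2bf, and the noncoding C030029H02Rik. The 12 higher ones were Plin4, Hif3a, Agrp, Sult1a1, Pla2g3, Cox6a2, Tekt4, and 5 noncoding, pseudogene, or unclassified loci. These sets rest on calls and not on separate values. Igfbp2 and Tekt4 overlapped with both other groups. Plin4, Hif3a, Sult1a1, Pla2g3, Cox6a2, C030029H02Rik, and the noncoding Gm42644 overlapped with the ICH mice. Hist1h2bf lost its call against sham without sham mouse 2, sham mouse 3, feb mouse 1, or feb mouse 3. For Ttr, the log2 difference was −3.85 against sham and −3.92 against ICH, and that between ICH and sham was 0.07. For Plin4, these values were 2.69, 2.29, and 0.39. Fkbp5 and Cdkn1a were not called against ICH, at log2 differences of 0.89 and 1.48.

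Of 19 tested genes of cholesterol handling, 17 had lower and 2 had higher values in the feb mice, all by small amounts. None met the DEG criteria, since none had a fold change over 2, but 14 had an unadjusted p under 0.05 by limma, all with lower values, where 3.69% of all genes did. The median log2 change was −0.36, and the ICH group differed from sham by a median of 0.07. For 9 of the 19 the feb mice lay below the sham mice without overlap, where 6.12% of all genes tested did. Hmgcs1, which makes the precursor of mevalonate, had 76.6, 61.2, and 66.4 RPKM in the sham mice and 42.8, 55.8, and 43.2 RPKM in the feb mice. Cyp51, which removes a methyl group from lanosterol, had 14.96, 11.8, and 12.8 RPKM in the sham mice and 8.69, 9.97, and 8.67 RPKM in the feb mice, with a log2 change of −0.52 ± 0.12 (SE). All 3 feb mice were below all 3 sham mice for both. The transporters Abca1 and Abcg1, which export cholesterol, had log2 changes of 0.36 and 0.05. The number with a p under 0.05 was 5 without feb mouse 1 and 6 without sham mouse 1, and it was 15 with lower values without feb mouse 2. Oligodendrocytes make much cholesterol, and the summed level of the 16 myelin genes was 884 to 1283 RPKM in the sham mice and 651 to 1082 RPKM in the feb mice. Its part in these differences was not tested.

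Genes of brain endothelium went in both directions. Of 17 tested, none was a DEG and 9 had an unadjusted p under 0.05 by limma, 7 with lower and 2 with higher values. Over all genes tested, 3.69% had such a p with lower and 5.95% with higher values. Kdr, a receptor of vascular endothelial growth factor, had 3.26, 2.34, and 2.25 RPKM in the sham mice and 1.45, 1.87, and 1.21 RPKM in the feb mice. The glucose transporter Slc2a1 had 17.8, 15.1, and 18.5 RPKM in the sham mice and 26.4, 20.2, and 26.0 RPKM in the feb mice, and the lipid transporter Mfsd2a had 5.30, 4.37, and 4.41 RPKM in the sham mice and 9.12, 5.32, and 10.1 RPKM in the feb mice. Both lie in the higher direction without overlap. In all, the feb and sham mice did not overlap for 6 endothelial genes in the lower and 2 in the higher direction. Over all genes tested these shares were 6.12% and 6.5%. Of 10 tested genes of pericytes and smooth muscle, all had lower values in the feb mice, with a median log2 change of −0.31. Among them, 3 had an unadjusted p under 0.05 by limma, and 3 were without overlap, where 3.69% and 6.12% of all genes tested were so in the lower direction.

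Most genes in the lists of inflammation were below the limit for testing or were not called. Of 21 cytokines and chemokines 6 were tested, of 14 genes of infiltrating leukocytes 2, of 16 microglia genes 16, and of 19 reactive astrocyte genes 10, and none of them was a DEG in the feb mice against sham. Of the 16 microglia genes, 13 had lower and 3 had higher values in the feb mice, with a median log2 change of −0.29. For 5 of them the feb mice lay below the sham mice without overlap, where 6.12% of all genes tested did. Between the feb and ICH groups, 3 were called lower, where 0.407% of all genes tested were. The alarmin Il33 had 8.33, 6.02, and 8.64 RPKM in the sham mice and 3.32, 6.46, and 2.87 RPKM in the feb mice, with a log2 change of −0.92 ± 0.30 (SE) that missed the fold change. Outside these lists, Il16, a T cell chemoattractant chosen here after its values were seen, was called higher with a log2 change of 1.10, and lost its call without sham mouse 2, sham mouse 3, feb mouse 1, or feb mouse 3. Il1b was at or below 0.421 RPKM and Tnf at or below 0.115 RPKM in these 6 mice, which is too low for a test. Serpina3n, an acute-phase protein of reactive astrocytes, had 5.89, 3.06, and 4.67 RPKM in the sham mice and 17.9, 3.15, and 18.9 RPKM in the feb mice, again with feb mouse 2 apart, and a log2 change of 1.21 ± 1.10 (SE). Of 10 tested genes of interferon response and antigen presentation, all had lower values in the feb mice, with a median log2 change of −0.40, and none was called.

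Lists with no DEG were also those of pericytes and smooth muscle, activated microglia, oligodendrocyte precursors, heme and iron handling, Nrf2 targets, the clock, immediate early genes, heat shock, hypoxia and glycolysis, Wnt signaling, striatal, thalamic, hindbrain, monoamine, and GABA neurons, diencephalon and midbrain factors, neuroblasts, cell division, ribosomal proteins, and the mitochondrial genome. In the hippocampus list only Spink8 was called, with 1.28, 1.86, and 1.21 RPKM in the sham mice and 3.17, 1.98, and 4.38 RPKM in the feb mice, and this call was lost without sham mouse 1, sham mouse 3, feb mouse 1, or feb mouse 3. Immediate early genes, which neurons switch on when active, had a median log2 change of 0.03 in the feb group with 0 of 23 called. In the ICH group the median was 0.72 with 6 called higher, where 0.621% of all genes tested were.

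**Figure D4:**
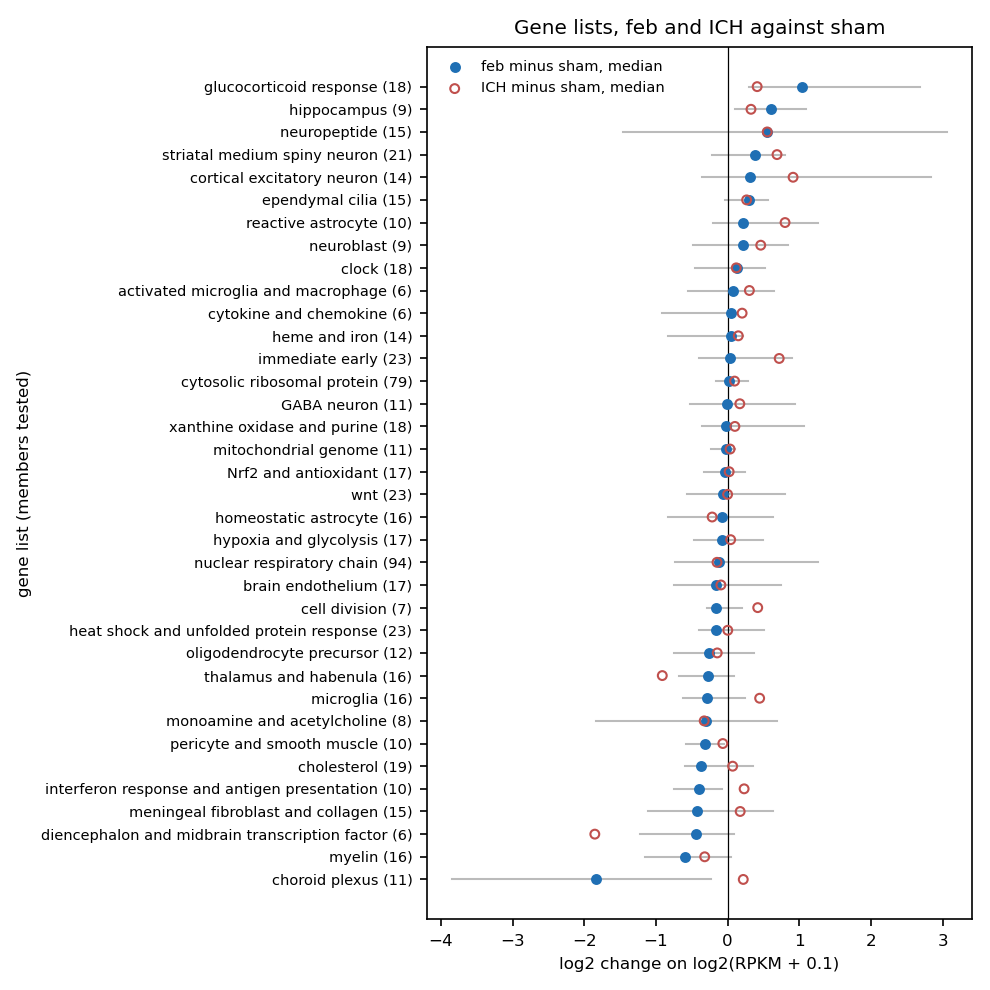
Median log2 change of each gene list with at least 5 tested members on log2(RPKM + 0.1), filled points for feb minus sham and open points for ICH minus sham, with gray lines from the lowest to the highest member in feb minus sham. Choroid plexus lies at −1.84 and glucocorticoid response at 1.03.

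Of the 93 higher DEGs, 32 were protein-coding, and this share depended on the setting, with 14 of 24 for a pseudocount of 1, 35 of 63 without sham mouse 1, and 13 of 25 without feb mouse 3. Of 12521 protein-coding genes tested, 32 (0.256%) were higher DEGs, against 23 of 571 TEC loci (4.03%) and 18 of 698 processed pseudogenes (2.58%). TEC loci are transcribed regions from cDNA evidence that await experimental proof in the annotation. Their median log2 change was 0.45. The median log2 level of all tested TEC loci for sham mice 1 to 3 was 0.54, 1.02, and 0.63. It was 1.25, 0.94, and 0.97 for the ICH mice and 0.96, 1.15, and 1.52 for the feb mice, so that sham mouse 2 overlapped with the feb group and feb mouse 3 was the highest of all. Processed pseudogenes, intron-less copies of mRNA that can take reads from their parent genes, had medians of 1.06, 1.16, and 1.08 for the sham mice and of 1.06, 1.35, and 1.38 for the feb mice.

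Of the 23 called TEC loci, 20 lie within an intron of a protein-coding gene on the same strand, as 63.0% of all 571 tested loci do, in 12 different genes. Fam155a, which encodes a subunit of a sodium leak channel, holds 5 of the 23, of which Gm44797, Gm44800, Gm44799, and Gm44802 are on its strand. The calcium channel gene Cacnb2 and the potassium channel regulator gene Kcnip4 hold 3 each. None of these host genes was a DEG. Over the 20 loci the host genes had a median log2 change of 0.42, against 1.06 for the loci themselves. The loci were picked for a fold change above 2 and their hosts were not, so this gap was partly fixed in advance. Over all 367 tested loci within a protein-coding gene on the same strand, the medians were 0.11 for the host genes and 0.56 for the loci. Gm44799 had 3.89, 4.52, and 4.62 RPKM in the sham mice and 6.73, 9.82, and 13.6 RPKM in the feb mice and was not called without feb mouse 3, while Fam155a itself had a log2 change of 0.42. 2900092N22Rik in Cacnb2 had 0.577, 3.42, and 1.06 RPKM in the sham mice and 5.28, 2.39, and 12.4 RPKM in the feb mice, with overlap, and was not called without sham mouse 1 or feb mouse 3. The number of TEC loci called depended on the mice. Without feb mouse 3, 0 of 571 were called higher. Without sham mouse 1 there were 4, without sham mouse 2 there were 103, and without feb mouse 1 there were 83. With quantile normalization there were 12 and with a pseudocount of 1 there were 4. The number of processed pseudogenes ran from 3 without feb mouse 3 to 41 without sham mouse 2.

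**Figure D5:**
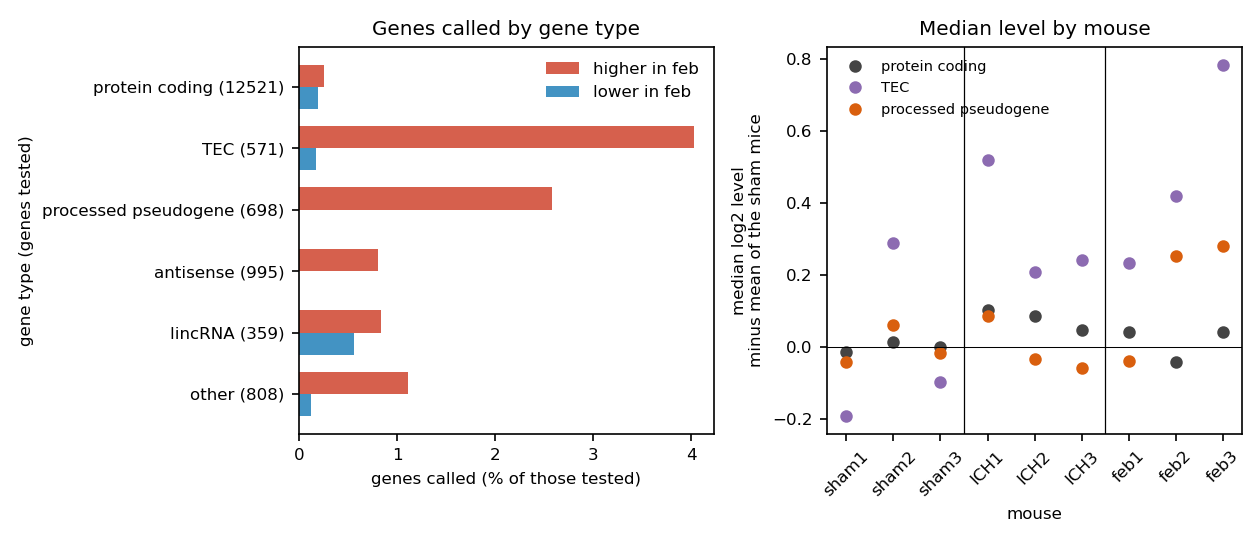
Left, the percentage of tested genes of each type that met the DEG criteria in feb against sham, higher and lower, and right, the median log2(RPKM + 0.1) of 3 gene types in each mouse minus the mean of the sham mice. TEC loci reach 4.03% higher on the left, and on the right their medians spread over sham mice as well as over feb mice, with feb mouse 3 at the top.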

How the data were processed

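RNA from the brains of 9 mice was sequenced with a stranded kit that adds molecular identifiers. The authors trimmed the reads with Trimmomatic 0.36, built consensus reads per identifier, aligned them to GRCm38, counted them with featureCounts of Subread 1.5.1, and deposited RPKM values, which are the only unit used here. They tested with edgeR 3.12.1. Use of strand and of multimapping reads in counting is not given in the sources used here. Depth was recovered from the steps of the RPKM values, and 3 reads on 1 kb of exon corresponded to 0.102 to 0.130 RPKM. This is counting error only.

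Groups came from the labels. All 9 mice entered 1 fit on log2(RPKM + 0.1) with limma 3.58.1 (R 4.3.3, trended variance) after the filter, without batch terms, and 3 contrasts were taken from it. Adjusted p-values are Benjamini-Hochberg over 15952 genes. An exact permutation test of 3 against 3 mice cannot go below 0.1 and was not used. Because RPKM is not a count, no count test was the main result. The fit was tested on simulated data. Gene types and positions are those of GENCODE on GRCm38, and promoters are RefSeq on GRCm38.p6. Tables and figures were made with Python 3.11.15.

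Named genes were the 12 largest rises and 12 largest falls among protein-coding DEGs without overlap, up to 4 DEGs of each list or else its 2 members of lowest p, the leading genes of the 2 sets shared with another contrast, and Xdh. Further members named to complete a list or a pattern were chosen with their values known. The comparison, the 39 lists, and the tests were chosen with earlier results of these data known. The alternatives were other pseudocounts, filters, scalings, sample sets and variance models, a replicate block, voom on the recovered reads, and leaving out each mouse.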

Additional observations from a re-analysis of the deposited data

How the results depend on the processing

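The 121 DEGs kept their sign under every alternative run, but their number did not hold. A pseudocount of 1 gave 24 higher and 15 lower (39, of which 5 were also called in the ICH group and 14 against it). Without the RPKM filter there were 304 and 108 (412, with 70 and 112), and with at least 0.1 RPKM in 3 of 9 mice and no limit on length 461 and 178 (639, with 159 and 164, and 1 gene, Traj29, past the adjusted p). The p-value without the fold change gave 1538 genes and the adjusted p 0. Leaving out 1 mouse gave 25 to 311 higher, 17 to 93 lower, and 46 to 376 in all, with 0 to 18 past the adjusted p, 10 to 154 shared with the ICH group, and 22 to 79 called against it. The total was 376 without sham mouse 2, 261 without feb mouse 2, 207 without feb mouse 1, and 46 without feb mouse 3, and the cause was not tested. Voom on the recovered reads gave 88 higher and 39 lower, with 0 past the adjusted p.

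Mice with the same number did not deviate together (correlations of −0.3513 to 0.0295), so the numbers do not pair them. With the replicate block, 85 genes were higher and 26 lower (111, and 0 past the adjusted p), with 12 and 30 in the shared sets.

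The list median of choroid plexus was −1.23 with a pseudocount of 1, and that of hypoxia and glycolysis −0.13 with voom. Cell division had −0.11 with a pseudocount of 1, −0.26 with quantile normalization, and −0.22 with voom. Leaving out 1 mouse gave −0.20 to −0.10 for cell division, −0.30 to −0.056 for brain endothelium, −0.077 to 0.052 for cytokines, −0.10 to 0.052 for Nrf2 targets, 0.41 to 0.96 for hippocampus, −1.08 to 0.088 for hindbrain, −0.30 to 1.10 for striatal neurons, −1.08 to 0.23 for diencephalon and midbrain factors, and −0.084 to 0.073 for the mitochondrial genome. Leaving out 1 mouse gave log2 changes of −0.18 to 1.46 for Cd4, −0.044 to 1.52 for Gpr6, −0.12 to 1.399 for Actn2, −1.14 to 0.037 for Irx1, and −1.51 to 0.088 for Glra1, each reversed without sham mouse 1, and quantile normalization reversed mt-Nd6 to 0.052. None of these 6 was a DEG.

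Of 1528 values for 90 named genes, 1445 stayed on their side of the threshold, 58 lost and 19 gained the call. The 90 include genes that were not DEGs, so the 58 lost calls all fall on the DEGs among them. Hba-a1 kept its call in 9 of 17 alternatives, and Fezf2 and Spink8 in 10 of 17 each. At this depth a value under about 0.1 RPKM rests on fewer than 3 reads per kilobase of exon. A short gene at that level in every mouse cannot show a difference.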
